A study of Homo sapiens with 18 samples.

Results

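Aminoacyl-tRNA synthetases were examined in 3 human myeloid cell lines, HL60, THP-1 and U937, with and without phorbol 12-myristate 13-acetate (PMA). The set was chosen by name: the nuclear genes for the cytosolic and the mitochondrial enzymes, 36 in all, under the older symbols of the array annotation (LARS for the gene now called LARS1). Of these, 34 had at least 1 probe set assigned to that symbol alone, 19 cytosolic and 15 mitochondrial, together 721 of 287329 probe sets and 34 of 16909 genes measured. DARS and VARS2 had none and are not analysed here. The rule uses gene names alone, and no measured value enters it.

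Messenger RNA was measured on 18 Affymetrix human exon arrays, 3 for each of 6 groups. The groups were HL60 DMSO, HL60 PMA, THP-1 DMSO, THP-1 PMA, U937 DMSO and U937 PMA. PMA, which activates protein kinase C and drives such cells towards a macrophage-like state, was given at 30 nM for 3 days, and dimethyl sulfoxide (DMSO), its vehicle, for the same time. HL60 comes from an acute promyelocytic leukaemia, THP-1 from an acute monocytic leukaemia and U937 from a histiocytic lymphoma, so each is 1 established line, and the labels name no genetic change. The labels do not say whether the arrays of a group came from separate cultures, so the p-values reflect the spread of these samples alone, which may be technical.

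A synthetase joins 1 amino acid to the transfer RNAs that carry its anticodons, and the charged transfer RNA is then taken to the ribosome. Cytosol and mitochondria translate separately and mostly use enzymes from separate nuclear genes, the mitochondrial ones named with a final 2. GARS and KARS are known to supply both compartments. Several cytosolic enzymes sit with 3 scaffold proteins in the multisynthetase complex. Synthetases are expressed in every nucleated cell, and in myeloid cells WARS is known as an interferon-inducible gene.

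A gene's value is the mean of its log2 probe-set values, and a change is taken only within a gene and a line, since probe sets differ in brightness and arrays shared exactly tied values within a line (39 to 116) far more than between lines (at most 7), so that a shared normalization of the lines cannot be assumed. A change is PMA minus DMSO in log2 units ± SE (3 arrays against 3, spread pooled over the 6 groups), so that 1 unit is 2-fold. A gene is called when its p from limma, with Benjamini-Hochberg adjustment across the 16909 genes, is under 0.05. Array medians ran from 6.18 to 6.95. The U937 arrays numbered 2 stood apart: they shared at most 5 tied values with any other array, and U937 PMA 2 held 83228 distinct values against 214471 to 220516. Counts of calls, list medians and the calls of named genes in U937 are therefore also given without that pair. The 8 myeloid markers, SPI1 and LYZ among them, had DMSO means of 7.80 to 12.74. Among 18 markers of T and NK, B, erythroid, epithelial and fibroblast cells, NKG7, a granule protein of cytotoxic lymphocytes, had DMSO means of 8.03, 8.34 and 11.3 in HL60, THP-1 and U937, and the others were at 6.31 or below. Levels of different genes are a description only.

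The called changes of synthetase transcripts were decreases with PMA, except that WARS was called higher in HL60 and, under some alternatives, HARS2, SARS and WARS in further lines. In HL60, limma called 7 of 34 members lower and 1 higher, where 10.5% of all genes were called lower and 12% higher. In THP-1, 10 were lower and none higher, against 12.8% and 9.04% of all genes. In U937, 20 were lower and none higher, against 15.9% and 5.35% of all genes. At an unadjusted p under 0.05 the limma counts of higher members in THP-1 and U937 were also 0, beside 18 and 24 lower. Without the U937 arrays numbered 2, the U937 count was 9 lower and 1 higher, against 9.86% and 7.84% of all genes. With all arrays, a limma fit of only the genes above the 30th percentile of gene values kept all 34 members. It called 7, 12 and 20 lower in HL60, THP-1 and U937 and 1, 0 and 0 higher. Of these brighter genes, 13.9%, 15.8% and 21.5% were called lower and 15.1%, 10.8% and 7.09% higher. A lower value in a bulk sample cannot tell less transcript per cell from fewer cells that hold it.

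Changes below 0 were more frequent than calls. They were seen for 26 of 34 members in HL60, 30 in THP-1 and 32 in U937, that is for 76.5%, 88.2% and 94.1%, where 37%, 46.2% and 58.8% of all genes lay below 0. All 3 PMA arrays lay below all 3 DMSO arrays for 13 members in HL60, 14 in THP-1 and 20 in U937, where 16.2%, 19.4% and 19.2% of all genes did so. The reverse, PMA above DMSO on every array, held for 2 members in HL60, 2 in THP-1 and 0 in U937, where 29.2%, 22.9% and 5.83% of all genes did so. Those 2 were WARS and HARS2 in HL60 and SARS and HARS2 in THP-1. Without the U937 arrays numbered 2, HARS (0.06), SARS (0.39), WARS (0.85), HARS2 (0.08) and PARS2 (0.02) lay above 0 in U937. The other members lay below 0, where the median over all genes was 0.07. Overlap of arrays, and the share of all genes below 0, were not counted without that pair.

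**Figure D1:**
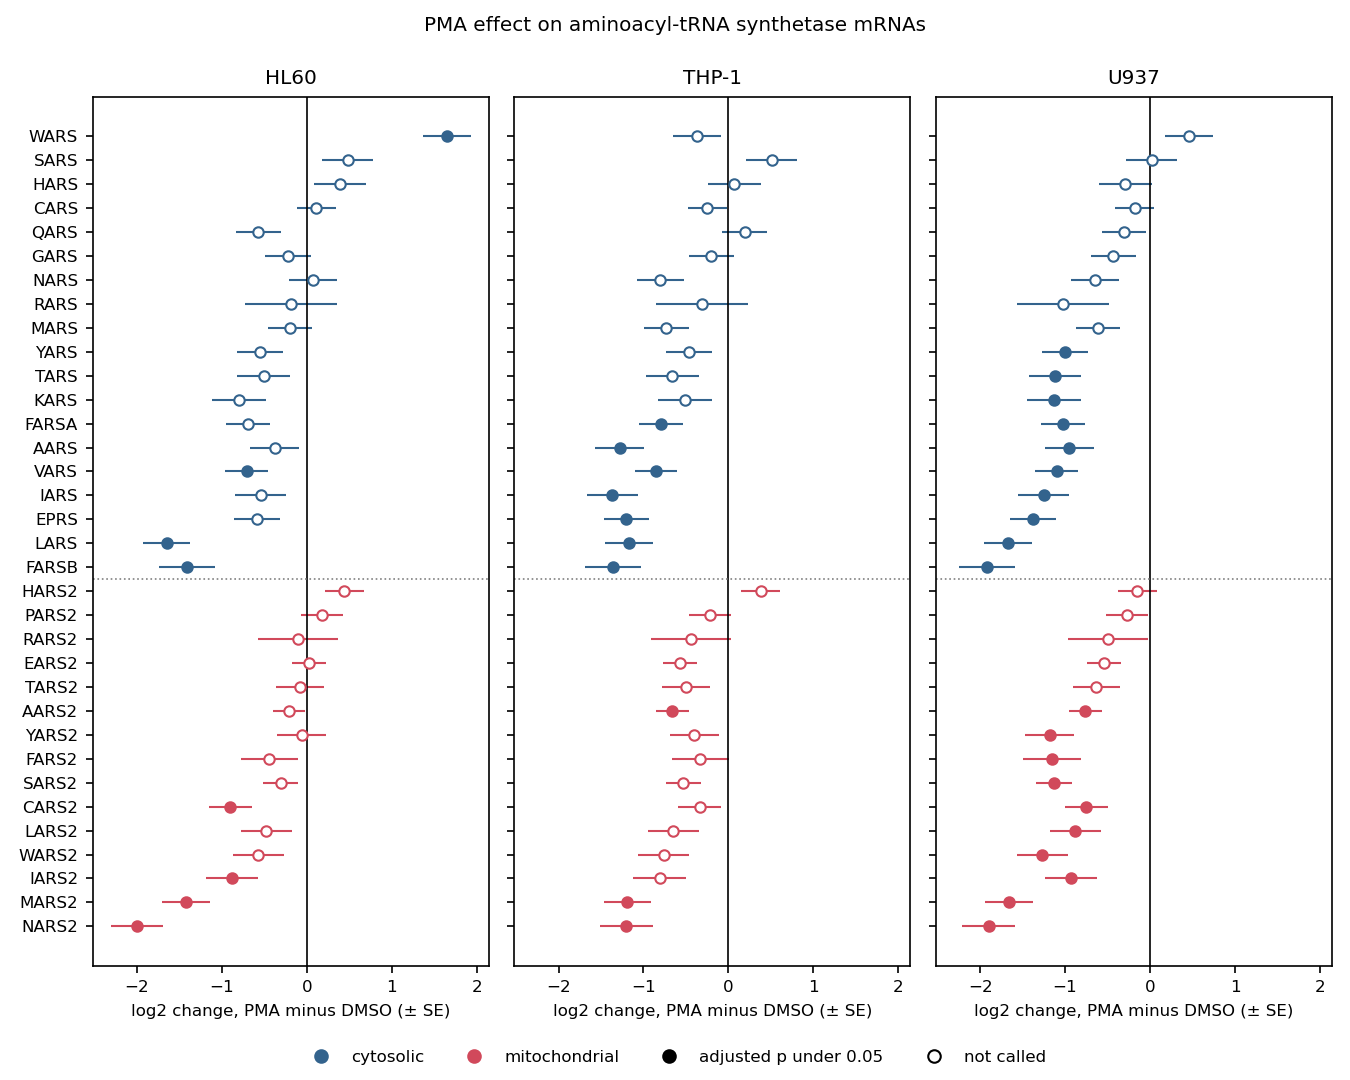
Log2 change with PMA (PMA minus DMSO, horizontal axis, ± SE) of the 34 synthetases in HL60, THP-1 and U937, cytosolic above and mitochondrial below the dotted line. Filled points have an adjusted p under 0.05. WARS in HL60 is the 1 filled point right of 0 (alternatives add HARS2, SARS and WARS in further lines), and NARS2 has the lowest value in HL60, at -2.00.

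Arrays with the same number in the PMA and DMSO groups of a line deviated together, and a fit with that number as a block called more members in each line. It called 11 lower and 1 higher in HL60 (15.3% and 17.8% of all genes), adding EPRS, FARSA, KARS and QARS. In THP-1 it called 18 lower (19.7% of all genes), adding KARS, MARS, NARS, TARS, EARS2, IARS2, SARS2 and WARS2. In U937 it called 25 lower (24.6% of all genes), adding GARS, MARS, NARS, RARS and EARS2. No call made without the block was lost with it.

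WARS, the cytosolic tryptophanyl-tRNA synthetase, rose in HL60. Its DMSO arrays read 8.83, 8.61 and 8.42 and its PMA arrays 10.42, 10.32 and 10.07. The groups did not overlap, and the change was 1.65 ± 0.28, 3.13-fold, with adjusted p = 0.00025 from limma. All 20 of its probe sets were higher with PMA, by 1.31 to 2.32. Leaving out any single array kept it between 1.55 and 1.75 and called.

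In THP-1 the WARS arrays read 8.19, 8.20 and 8.28 with DMSO and 7.59, 7.92 and 8.03 with PMA. PMA arrays lay just below the DMSO arrays, a change of -0.37 ± 0.28 that was not called (limma adjusted p = 0.4). U937 gave 8.20, 7.97 and 7.89 with DMSO and 8.49, 7.66 and 9.29 with PMA. Here the PMA arrays spanned the DMSO arrays, PMA 3 being highest and PMA 2 lowest of all 6, and the change was 0.46 ± 0.28 (limma adjusted p = 0.321). Without the arrays numbered 2 it was 0.85 ± 0.24 and called (adjusted p = 0.0265), as it was without U937 PMA 2 alone, at 0.87 (adjusted p = 0.00816). With quantile normalization of all arrays, the U937 change was 0.70 and called (limma adjusted p = 0.00905), and over fits without 1 array it ran from 0.06 to 0.87.

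The effect of PMA on WARS was larger in HL60 than in THP-1 by 2.02 ± 0.40 log2 units (limma adjusted p = 0.00345 for the difference of effects). WARS was the 1 member called by limma in that difference, against 7.43% of all genes, with 3 members at an unadjusted p under 0.05. EARS2 was called there as well without the U937 arrays numbered 2, without U937 PMA 2 alone and with the HL60 and THP-1 arrays alone. QARS was called there with quantile normalization and with arrays centred on their medians. The block without the U937 pair, a combination chosen after seeing the data, called AARS, NARS, QARS and EARS2 besides WARS. Between HL60 and U937 the difference for WARS was 1.19 ± 0.40 (limma adjusted p = 0.0874), and none of the 34 members was called by limma, against 7.33% of all genes, with 3 members at an unadjusted p under 0.05. With the replicate number as a block, WARS (adjusted p = 0.0313) and SARS2 (0.81, adjusted p = 0.0432) were called there, 2 members against 15.4% of all genes. Between THP-1 and U937 no member was called, against 4.52% of all genes. In that contrast the limma count at an unadjusted p under 0.05 was 0 too. WARS was called there once the U937 arrays numbered 2 were left out, with an effect lower in THP-1 by 1.22 ± 0.31 log2 units (adjusted p = 0.0358), and likewise with quantile normalization (adjusted p = 0.0286).

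RefSeq (GRCh38.p14) gives WARS 2 promoters, each shown here from 250 bases before to 50 bases after a transcript start. They are shown because WARS was the 1 member called higher in the fit of all arrays. Capitals mark exact matches, on either strand, to the motifs searched. In the first these are the gamma-activated site TTCNNNGAA, an element of interferon-gamma target genes, and an interferon-stimulated response element core, GAAA and GAAA around a pair of arbitrary bases, a motif chosen after the sequences were seen. The second held none of the motifs.
WARS promoter, chr14:100375298-100375597, minus strand: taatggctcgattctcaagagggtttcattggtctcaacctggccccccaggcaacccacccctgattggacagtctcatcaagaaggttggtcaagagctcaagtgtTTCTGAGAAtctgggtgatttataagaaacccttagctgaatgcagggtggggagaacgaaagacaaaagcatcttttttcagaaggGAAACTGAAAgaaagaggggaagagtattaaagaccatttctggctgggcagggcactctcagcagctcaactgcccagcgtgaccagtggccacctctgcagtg
WARS promoter, chr14:100376278-100376577, minus strand: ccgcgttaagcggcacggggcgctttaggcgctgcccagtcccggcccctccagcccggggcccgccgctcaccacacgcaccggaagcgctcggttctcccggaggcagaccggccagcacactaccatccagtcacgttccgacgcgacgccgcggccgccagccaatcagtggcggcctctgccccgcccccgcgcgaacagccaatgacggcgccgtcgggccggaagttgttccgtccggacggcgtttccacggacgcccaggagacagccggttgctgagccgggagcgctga
A gamma-activated site was found in 17.9% of the 39 synthetase promoters and in 7.66% of all 35116 promoters of that length, and the response element core in 7.69% and 3.57%. Promoters of 1 gene can overlap and share a site, as those of EARS2 and WARS2 do. By gene, the gamma-activated site was found for 5 of 30 synthetases, against 2560 of 27305 genes. The core was found for 2 of 30, EARS2 and WARS, against 1195 of 27305. In HL60, where WARS rose, 2 of 8 measured interferon-gamma target genes were called higher: the guanylate-binding proteins GBP1 (0.86 ± 0.27) and GBP2 (1.03 ± 0.23). Both also rose in THP-1, by 1.78 ± 0.27 and 1.73 ± 0.23, where WARS was not called. In U937 the 1 gene of this list called was the chemokine CXCL10, at 1.60 ± 0.21, and at 1.34 ± 0.21 without the pair numbered 2. Of all genes, 12%, 9.04% and 5.35% were called higher in HL60, THP-1 and U937. The median change of the list was 0.44 in HL60, 0.22 in THP-1 and 0.07 in U937, beside 0.13, 0.04 and -0.07 over all genes, and without the pair it was 0.25 in U937, beside 0.07. GBP1 and GBP2 had means of 5.20 and 4.63 in HL60 with PMA, below the 30th percentile of gene values, 5.27. CXCL10 read below that percentile on every array, and its highest value, 5.21, was on U937 PMA 2. The GBP1 call in HL60 was lost without DMSO 1 (0.74), DMSO 2 (0.80), PMA 1 (0.79) or PMA 3 (0.87).

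In all 3 lines 5 of 34 members were called lower: FARSB, LARS and VARS among the cytosolic enzymes and NARS2 and MARS2 among the mitochondrial ones. Over all genes, 5.71% were lower in all 3.

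LARS charges leucine and is also known as a leucine sensor for the growth regulator mTORC1. In HL60 its DMSO arrays read 10.42, 10.39 and 9.94 and its PMA arrays 8.98, 8.48 and 8.35. In THP-1 they read 9.83, 10.05 and 9.32 with DMSO and 8.04, 8.77 and 8.89 with PMA. In U937 they read 10.21, 10.05 and 10.19 with DMSO and 8.61, 7.89 and 8.94 with PMA. The groups were apart in each line, with U937 PMA 2 the lowest of its group. LARS fell by 1.65 ± 0.28 (3.13-fold) in HL60, by 1.17 ± 0.28 in THP-1 and by 1.67 ± 0.28 in U937, with limma adjusted p = 0.000258, 0.00571 and 0.000325. Of 37 LARS probe sets, 36 were lower in each line. Leaving out the U937 arrays numbered 2 gave -1.43 ± 0.31 in U937, still called (adjusted p = 0.0055).

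FARSB is the beta chain of phenylalanyl-tRNA synthetase, whose alpha chain is FARSA. FARSB read 10.01, 9.74 and 9.23 with DMSO and 8.69, 8.23 and 7.83 with PMA in HL60. In THP-1 it read 9.91, 10.16 and 8.99 against 8.17, 8.64 and 8.17. In U937 it read 10.15, 9.88 and 9.73 against 8.28, 7.29 and 8.43. No PMA array reached a DMSO array of its line, although THP-1 DMSO 3 lay well below the other two. The falls were 1.41 ± 0.33, 1.36 ± 0.33 and 1.92 ± 0.33, with limma adjusted p = 0.00424, 0.00634 and 0.000426. All 20 probe sets were lower in each line. The alpha chain FARSA was at -0.69 ± 0.26 in HL60, where it was not called (limma adjusted p = 0.0698), and fell by 0.79 ± 0.26 in THP-1 and 1.02 ± 0.26 in U937. The FARSA call in THP-1 was lost without DMSO 1 (-0.68), DMSO 2 (-0.67), PMA 2 (-0.83) or PMA 3 (-0.58), and that in U937 without both arrays numbered 2 (-0.85, adjusted p = 0.101). FARSB was still called in U937 without that pair, at -1.58 ± 0.37 (adjusted p = 0.0097).

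VARS charges valine. Its HL60 arrays read 8.67, 8.92 and 8.91 with DMSO and 8.04, 8.31 and 8.02 with PMA. In THP-1 the values were 9.42, 9.50 and 9.35 against 8.43, 8.45 and 8.82. In U937 they were 9.46, 9.25 and 9.52 against 8.21, 7.71 and 9.04. Groups did not overlap in any line, and VARS fell by 0.71 ± 0.25, 0.85 ± 0.25 and 1.10 ± 0.25 (limma adjusted p = 0.0464, 0.0175 and 0.00326). The HL60 call was marginal: it was lost in 15 of 18 fits without 1 array, which include each of the 6 HL60 arrays, at changes of -0.80 to -0.66 and adjusted p up to 0.137. The THP-1 call was lost without DMSO 1 (-0.85), DMSO 2 (-0.81), PMA 1 (-0.78) or PMA 2 (-0.79), at limma adjusted p of at most 0.0722. The U937 call held without the arrays numbered 2, at -0.87 ± 0.23 (limma adjusted p = 0.0173).

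NARS2, the mitochondrial asparaginyl-tRNA synthetase, had the lowest change of any member in HL60. Its arrays there read 7.98, 7.26 and 7.04 with DMSO and 5.83, 5.41 and 5.03 with PMA. THP-1 gave 6.96, 7.28 and 6.24 against 5.49, 5.85 and 5.53, and U937 gave 8.10, 7.80 and 7.31 against 6.03, 5.44 and 6.05. Every PMA array was below every DMSO array of its line, and the PMA arrays, at 5.03 to 6.05, lay around the 30th percentile of gene values, 5.27. NARS2 fell by 2.00 ± 0.31 (4-fold) in HL60, 1.20 ± 0.31 in THP-1 and 1.90 ± 0.31 in U937 (limma adjusted p = 8.61e-05, 0.00825 and 0.00022). All 17 probe sets were lower in each line. The THP-1 call was lost without THP-1 DMSO 2 (-0.97, limma adjusted p = 0.0586), and the U937 change without the arrays numbered 2 was -1.67 ± 0.38 and called (adjusted p = 0.00798).

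MARS2, the mitochondrial methionyl-tRNA synthetase, charges the methionine that also starts mitochondrial proteins. It read 8.45, 8.65 and 8.01 with DMSO and 7.09, 7.10 and 6.64 with PMA in HL60. In THP-1 it read 8.08, 8.03 and 7.30 against 6.16, 6.81 and 6.88, and in U937 9.58, 9.39 and 9.42 against 7.66, 7.35 and 8.40. The groups were apart in each line, by a wide margin in U937. MARS2 fell by 1.42 ± 0.28, 1.19 ± 0.28 and 1.66 ± 0.28 (limma adjusted p = 0.00104, 0.0051 and 0.000363), with all 7 of its probe sets lower in each line. In U937 it was -1.47 ± 0.34 without the arrays numbered 2 (adjusted p = 0.00788). No single array removed a call of LARS, FARSB or MARS2 in any line.

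**Figure D2:**
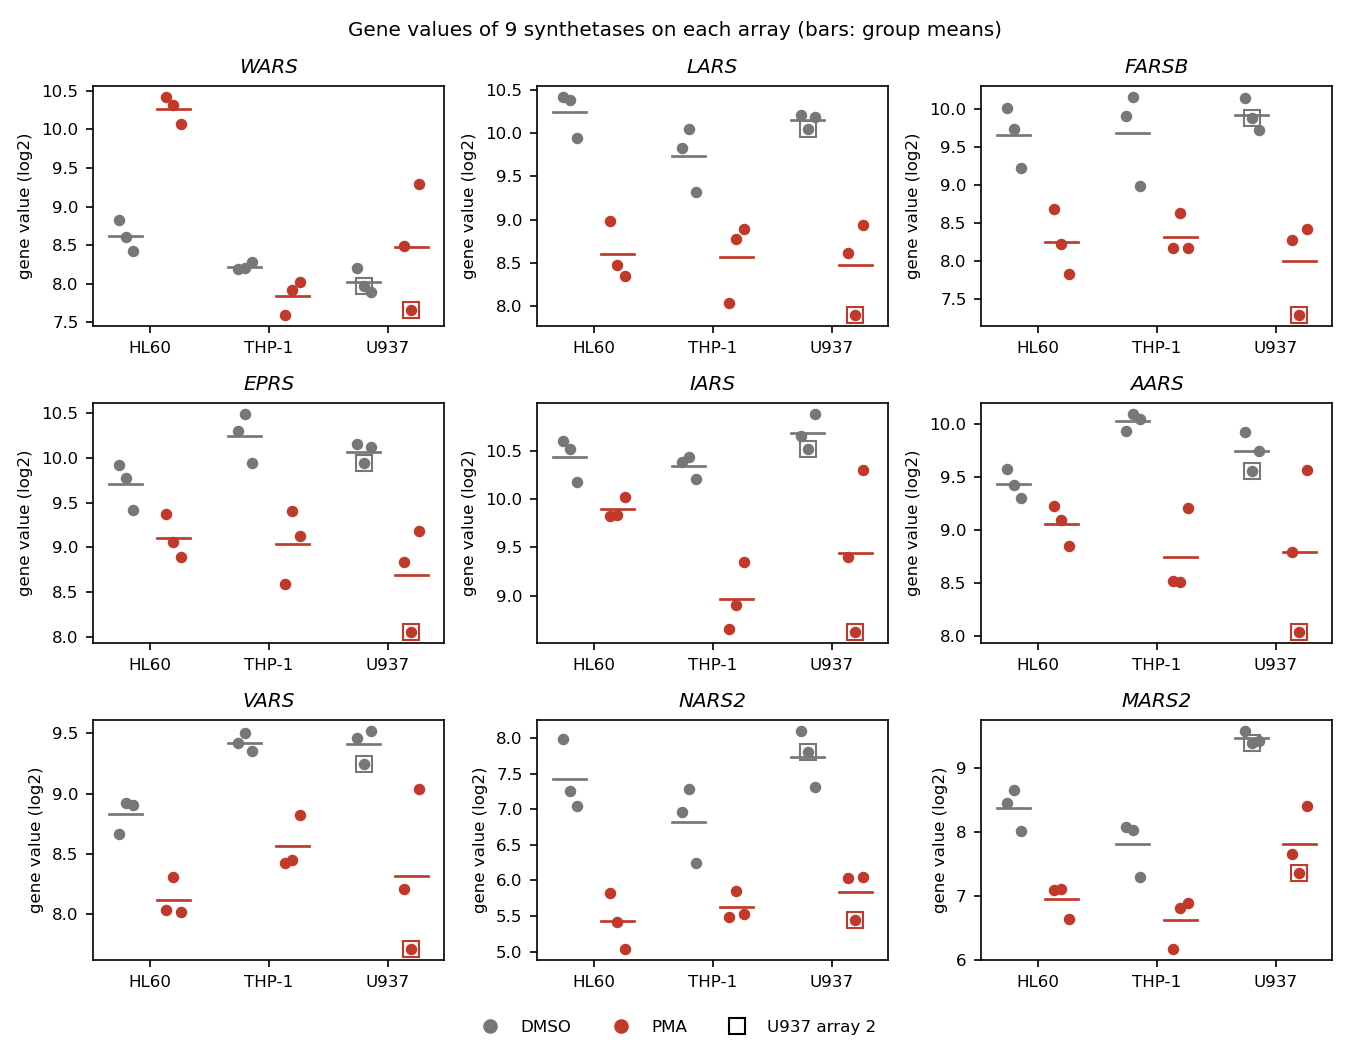
Gene values (log2, vertical axis) of 9 synthetases on each array, DMSO grey and PMA red, with bars at group means and squares around the U937 arrays numbered 2. WARS is above its DMSO arrays in HL60, at 10.07 to 10.42, while LARS, FARSB, VARS, NARS2 and MARS2 are below theirs in each line.

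The promoters of the members lower in all lines are shown as far as the RefSeq table holds them, for FARSB, MARS2 and NARS2, in the same window of 250 bases before to 50 after the start. Capitals mark matches to the motifs searched: the NRF1 site (GCGCA and GCGC around 1 arbitrary base), which belongs to a factor of nuclear genes for mitochondria, and the E-box CACGTG, bound by MYC among others. NARS2 held none of them.
FARSB promoter, chr2:222656043-222656342, minus strand: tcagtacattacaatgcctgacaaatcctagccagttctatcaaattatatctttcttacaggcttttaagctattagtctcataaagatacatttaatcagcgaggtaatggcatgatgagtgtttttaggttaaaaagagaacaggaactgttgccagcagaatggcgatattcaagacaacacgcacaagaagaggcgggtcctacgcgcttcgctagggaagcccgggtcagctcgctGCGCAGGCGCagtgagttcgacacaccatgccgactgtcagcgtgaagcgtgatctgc
MARS2 promoter, chr2:197705119-197705418, plus strand: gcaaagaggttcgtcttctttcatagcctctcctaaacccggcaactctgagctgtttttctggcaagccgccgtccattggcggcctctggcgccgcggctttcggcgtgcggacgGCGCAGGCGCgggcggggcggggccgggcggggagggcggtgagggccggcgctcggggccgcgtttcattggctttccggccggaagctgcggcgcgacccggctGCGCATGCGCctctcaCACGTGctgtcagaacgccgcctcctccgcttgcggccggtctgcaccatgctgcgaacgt
NARS2 promoter, chr11:78574815-78575114, minus strand: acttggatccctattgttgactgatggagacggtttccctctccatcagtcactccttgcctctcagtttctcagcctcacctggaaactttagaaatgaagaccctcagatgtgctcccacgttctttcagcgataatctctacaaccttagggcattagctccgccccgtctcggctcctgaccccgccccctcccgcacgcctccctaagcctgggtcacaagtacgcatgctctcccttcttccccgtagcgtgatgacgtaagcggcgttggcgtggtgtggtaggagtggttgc
Of the 39 promoters of the 30 members in the table, 20.5% held an NRF1 site, against 5.78% of all 35116, and 12.8% held an E-box, against 7.26%. By gene, since overlapping promoters of 1 gene can share a site, an NRF1 site was found for 6 of 30, against 1905 of 27305. An E-box was found for 4 of 30, against 2396 of 27305. The NRF1 site was found for FARSB, SARS and TARS among cytosolic members and for IARS2, MARS2 and PARS2 among mitochondrial ones. Of those 6, FARSB and MARS2 fell in all 3 lines, SARS and PARS2 were called in none, and TARS in U937 alone, with IARS2 in HL60 and U937.

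Enzymes of the multisynthetase complex include LARS, described above, and EPRS, IARS, KARS, MARS, QARS and RARS. Of these 7, limma called 1 lower in HL60, 3 in THP-1 and 4 in U937, and none higher, with median changes of -0.57, -0.73 and -1.13. Of the 12 cytosolic members outside it, 2, 4 and 6 were lower and 1, 0 and 0 higher, with medians of -0.30, -0.56 and -0.80. Of all genes, 10.5%, 12.8% and 15.9% were called lower. Without the U937 pair numbered 2, 3 of the 7 were lower in U937 with a median of -0.86, and 2 of the 12 were lower and 1 higher with a median of -0.57, against 9.86% and 7.84% of all genes. The difference between these groups of enzymes was not tested.

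EPRS joins glutamate and proline in 1 protein. It read 10.30, 10.49 and 9.94 with DMSO and 8.59, 9.41 and 9.13 with PMA in THP-1, and 10.15, 9.94 and 10.12 against 8.84, 8.05 and 9.18 in U937. The groups were apart in both, and EPRS fell by 1.20 ± 0.27 and 1.38 ± 0.27 (limma adjusted p = 0.0032 and 0.0011). In HL60 the arrays read 9.92, 9.77 and 9.42 against 9.37, 9.06 and 8.89, also without overlap. That change was -0.59 ± 0.27, not called by limma (adjusted p = 0.137) and called with the replicate block (adjusted p = 0.035). The U937 change without the arrays numbered 2 was -1.12 ± 0.27 (limma adjusted p = 0.0105).

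IARS, for isoleucine, read 10.38, 10.43 and 10.21 with DMSO and 8.66, 8.90 and 9.35 with PMA in THP-1. In U937 it read 10.65, 10.52 and 10.88 against 9.40, 8.62 and 10.30. Both sets of groups were apart, narrowly in U937, where PMA 3 was high. IARS fell by 1.37 ± 0.30 in THP-1, the largest fall of a cytosolic member there, and by 1.25 ± 0.30 in U937 (limma adjusted p = 0.00263 and 0.00535). In HL60 it read 10.60, 10.52 and 10.18 against 9.82, 9.84 and 10.02, a change of -0.54 ± 0.30 (limma adjusted p = 0.241). All 40 of its probe sets were lower in each line. In U937, leaving out the arrays numbered 2 gave -0.92 ± 0.27 (adjusted p = 0.0324).

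KARS, for lysine, was lower in U937 by 1.13 ± 0.32 (limma adjusted p = 0.0159), with 3 calls lost among the single-array fits, without U937 DMSO 1, DMSO 2 or PMA 2 (changes of -0.98, -1.03 and -0.95). Its HL60 and THP-1 changes were -0.80 ± 0.32 and -0.51 ± 0.32, not called by limma (adjusted p = 0.0873 and 0.303) and called with the replicate block (adjusted p = 0.00297 and 0.0402). The HL60 change was also called with quantile normalization (limma adjusted p = 0.039), with arrays centred on their medians and with the HL60 arrays alone. MARS, for methionine, was at -0.20 ± 0.26, -0.73 ± 0.26 and -0.61 ± 0.26, just short of a call in THP-1 (limma adjusted p = 0.0557). RARS, for arginine, varied so much between arrays of one group (SD 0.57 to 0.93) that its SE was 0.54, and -1.02 ± 0.54 in U937 was not called in the fit of all arrays (limma adjusted p = 0.231), and was called with the block (adjusted p = 0.00229) and with the U937 arrays alone. QARS, for glutamine, was at -0.57 ± 0.26, 0.19 ± 0.26 and -0.31 ± 0.26, and in THP-1 27 of its 31 probe sets were higher with PMA.

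Outside the complex, AARS, for alanine, read 9.94, 10.10 and 10.05 with DMSO and 8.52, 8.51 and 9.21 with PMA in THP-1. The groups were clearly apart, and AARS fell by 1.28 ± 0.29 (limma adjusted p = 0.00322). In HL60 it read 9.58, 9.43 and 9.30 against 9.23, 9.10 and 8.85, a change of -0.38 ± 0.29 (limma adjusted p = 0.411) with all 23 probe sets lower. In U937 the groups overlapped, at 9.93, 9.56 and 9.75 against 8.79, 8.03 and 9.57, where PMA 3 lay just above the lowest DMSO array. The U937 fall of 0.95 ± 0.29 was called (limma adjusted p = 0.0241), and that call was lost without DMSO 1 (-0.86), DMSO 3 (-0.95), PMA 1 (-0.94) or PMA 2 (-0.57).

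TARS (threonine) and YARS (tyrosine) were lower in U937, by 1.12 ± 0.31 and 1.00 ± 0.27 (limma adjusted p = 0.0136 and 0.0132). In the other lines, where changes lay between -0.66 and -0.46, limma called neither in the fit of all arrays. The replicate block called TARS lower in THP-1. YARS was called lower in HL60 with quantile normalization (limma adjusted p = 0.0324) and with arrays centred on their medians. Both U937 calls were lost without U937 DMSO 1 (-1.00 and -0.92) or PMA 2 (-0.84 and -0.72). NARS, for asparagine, was at 0.07 ± 0.28, -0.80 ± 0.28 and -0.65 ± 0.28, with a limma adjusted p of 0.0527 in THP-1.

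In the fit of all arrays without the block, limma called CARS, GARS, HARS, MARS, NARS, QARS, RARS and SARS in no line. With the block, all of these but CARS, HARS and SARS were called lower in at least 1 line. Other alternatives also called some of them. SARS, for serine, had changes of 0.48 ± 0.30, 0.51 ± 0.30 and 0.02 ± 0.30, and all 14 of its probe sets were higher in HL60 and THP-1. With quantile normalization SARS was called higher in THP-1, at 0.57 (limma adjusted p = 0.0488). The same normalization called QARS lower in HL60 and MARS and NARS lower in THP-1 (limma adjusted p = 0.0184, 0.0329 and 0.0117). HARS, for histidine, was at 0.39 ± 0.31, 0.07 ± 0.31 and -0.29 ± 0.31. CARS, for cysteine, was at 0.11, -0.25 and -0.18, each ± 0.23, and at 0.07 in U937 with quantile normalization. GARS, for glycine, rested on 3 probe sets and was at -0.22, -0.20 and -0.43, each ± 0.27.

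Mitochondrial members besides NARS2 and MARS2 were called mostly in U937. CARS2, for cysteine, fell in HL60, where it read 8.71, 8.31 and 7.92 with DMSO and 7.58, 7.34 and 7.33 with PMA. The groups did not overlap, and the fall was 0.90 ± 0.25 (limma adjusted p = 0.0135), a call lost without HL60 DMSO 1 (-0.70) or PMA 3 (-0.85). In U937 its arrays read 9.64, 9.55 and 9.30 against 8.62, 8.30 and 9.31, where PMA 3 reached the DMSO range, and the fall was 0.75 ± 0.25 (limma adjusted p = 0.0401). That call was lost in 8 of 18 fits without 1 array: without U937 DMSO 1 (-0.68), DMSO 2 (-0.73), PMA 1 (-0.69) or PMA 2 (-0.53), and without 4 arrays of the other lines (-0.75, with adjusted p of at most 0.0525). THP-1 gave 8.48, 8.52 and 8.06 against 8.27, 8.02 and 7.74, overlapping groups with a change of -0.34 ± 0.25.

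AARS2, for alanine, fell by 0.66 ± 0.19 in THP-1, from 7.78, 7.71 and 7.81 to 6.93, 6.97 and 7.41, groups that lay apart. In U937 it read 8.36, 8.20 and 7.96 with DMSO and 7.45, 7.21 and 7.57 with PMA and fell by 0.76 ± 0.19. The limma adjusted p-values were 0.0154 and 0.00636, and all 29 probe sets were lower in both lines. HL60 arrays of AARS2 overlapped, at 7.06, 7.49 and 7.38 against 6.82, 7.22 and 7.25 (-0.21 ± 0.19). The THP-1 call was lost without PMA 1 (-0.58, limma adjusted p = 0.0785) or PMA 2 (-0.60, limma adjusted p = 0.0649). The U937 call just held without the arrays numbered 2, at -0.65 ± 0.21 (limma adjusted p = 0.0495). That U937 call was lost with quantile normalization (-0.49, limma adjusted p = 0.0562) and with the U937 arrays alone (limma adjusted p = 0.11).

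WARS2, the mitochondrial counterpart of WARS, went down where it was called. In U937 it read 7.42, 7.08 and 6.83 with DMSO and 5.94, 5.22 and 6.36 with PMA, without overlap, and fell by 1.27 ± 0.30 (limma adjusted p = 0.00525). In HL60 it read 6.68, 6.43 and 5.92 against 6.20, 5.58 and 5.54, and in THP-1 6.74, 6.97 and 6.09 against 5.79, 6.12 and 5.60. Those groups overlapped, and the changes were -0.57 ± 0.30 and -0.76 ± 0.30. Neither was called by limma in the fit of all arrays without the block (adjusted p = 0.219 and 0.0859). Quantile normalization of all arrays called both (limma adjusted p = 0.0424 and 0.0257), and the block called that in THP-1 (adjusted p = 0.0173). Without the U937 arrays numbered 2 the U937 change was -0.98 ± 0.34 and not called (limma adjusted p = 0.0694).

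The other mitochondrial members called in U937 were SARS2 (-1.13 ± 0.21), YARS2 (-1.18 ± 0.29), FARS2 (-1.15 ± 0.34), IARS2 (-0.93 ± 0.31) and LARS2 (-0.88 ± 0.30). Of these, SARS2 was still called without the arrays numbered 2, at -0.89 ± 0.18 (limma adjusted p = 0.00386), while the other four were between -0.88 and -0.54 and not called. The LARS2 call was lost in 13 of 18 fits without 1 array, at -0.51 without U937 PMA 2 and -0.90 to -0.81 without any other, with U937 PMA 3 the 1 U937 array whose absence kept it. Calls were also lost for FARS2 and IARS2 without U937 DMSO 1, DMSO 2 or PMA 2, at -0.88, -1.15 and -0.88 for FARS2 and -0.83, -0.93 and -0.57 for IARS2. IARS2 was also lower in HL60, by 0.88 ± 0.31 (limma adjusted p = 0.0484), a call lost without HL60 DMSO 1 (-0.71), DMSO 2 (-0.85), PMA 2 (-0.82) or PMA 3 (-0.70) and without 7 arrays of the other lines (-0.88). EARS2, HARS2, PARS2, RARS2 and TARS2 were called in no line in the fit of all arrays without the block. EARS2, for glutamate, was at -0.57 ± 0.20 in THP-1 (limma adjusted p = 0.0531) and -0.54 ± 0.20 in U937 (0.0685), called with the block in both (adjusted p = 0.0203 and 0.0265) and, without the U937 pair numbered 2, in THP-1 (0.00211). HARS2, which lies beside HARS in head-to-head orientation, had changes of 0.44 ± 0.23, 0.38 ± 0.23 and -0.15 ± 0.23, and its PMA arrays lay above its DMSO arrays in HL60 and THP-1. It was called higher in both with quantile normalization of all arrays, which turned its U937 change to 0.10, and in THP-1 also with arrays centred on their medians.

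For some amino acids, the cytosolic and mitochondrial enzymes had unlike changes in some lines, and the pairs given are a selection. For asparagine NARS was at 0.07 and NARS2 at -2.00 in HL60, but at -0.80 and -1.20 in THP-1. For methionine MARS was at -0.20 and MARS2 at -1.42 in HL60, -0.73 and -1.19 in THP-1, and -0.61 and -1.66 in U937. For leucine the order was turned, with LARS at -1.65 and LARS2 at -0.48 in HL60 and at -1.17 and -0.65 in THP-1. For tryptophan WARS was at 1.65 and WARS2 at -0.57 in HL60, and at -0.37 and -0.76 in THP-1. For alanine AARS and AARS2 were close in HL60, at -0.38 and -0.21, and were at -1.28 and -0.66 in THP-1. In U937 these enzymes, cytosolic first, were at -0.65 and -1.90 for asparagine and -1.67 and -0.88 for leucine. They were at 0.46 and -1.27 for tryptophan and -0.95 and -0.76 for alanine there. The differences within these pairs of genes were not tested.

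The medians of the cytosolic and the mitochondrial class lay close together. Median changes were -0.51 for cytosolic and -0.31 for mitochondrial members in HL60, -0.66 and -0.53 in THP-1, and -1.00 and -0.88 in U937, beside medians of 0.13, 0.04 and -0.07 over all genes. The cytosolic median was lower by 0.20, 0.13 and 0.12. That order turned in THP-1 with medians of probe sets, where cytosolic minus mitochondrial was 0.12, and in U937 without PMA 3, where it was 0.06. Means gave another order: the mean change of cytosolic minus mitochondrial members was 0.12 in HL60, -0.06 in THP-1 and 0.10 in U937, with pooled SDs over arrays of 0.075, 0.066 and 0.036. Median and mean therefore differ in sign in HL60 and U937. Without the U937 arrays numbered 2, the U937 medians were -0.68 and -0.57, beside 0.07 over all genes.

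**Figure D3:**
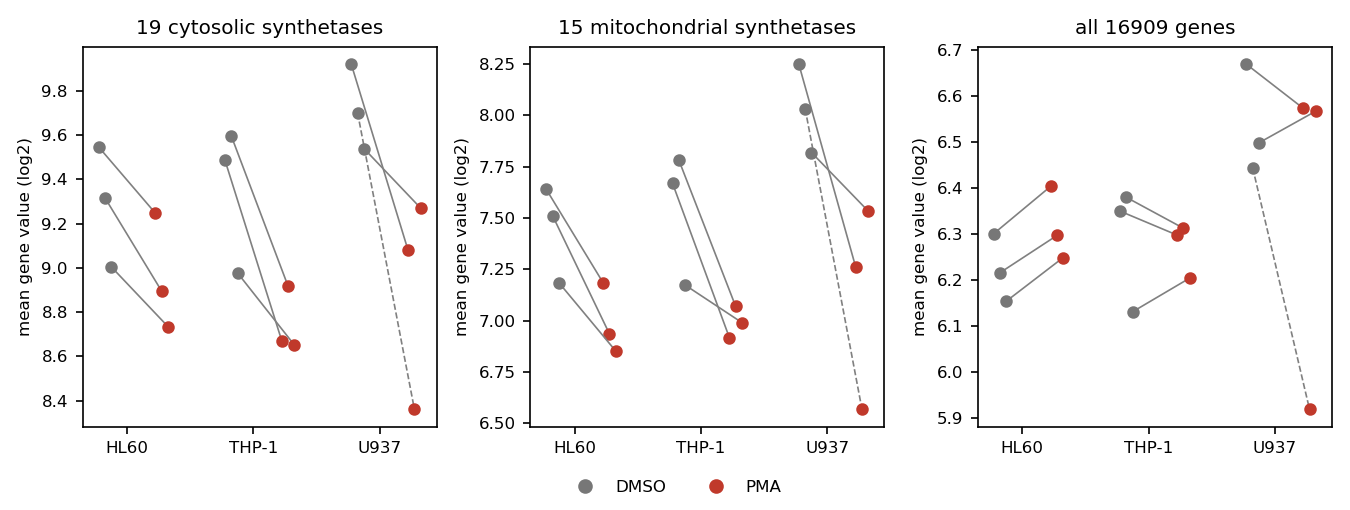
Mean gene value (log2, vertical axis) of the 19 cytosolic members, the 15 mitochondrial members and all 16909 genes on each array, with lines joining DMSO and PMA arrays of the same number and a dashed line for the U937 arrays numbered 2. Every joined pair falls for both classes, while the mean over all genes rises in HL60 and falls most, from 6.444 to 5.918, in the U937 pair numbered 2.

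The U937 pair numbered 2 carried the largest falls. Its cytosolic mean went from 9.701 to 8.360 and its mitochondrial mean from 8.032 to 6.567, while the mean over all genes went from 6.444 to 5.918. In the U937 pairs numbered 1 and 3 the cytosolic mean went from 9.921 to 9.079 and from 9.540 to 9.270, and the mean over all genes from 6.670 to 6.574 and from 6.499 to 6.568. Without the pair, AARS, FARSA, KARS, TARS, YARS, CARS2, FARS2, IARS2, LARS2, WARS2 and YARS2 lost their U937 calls, with 1 fewer array in each group. FARSB, LARS, EPRS, IARS, VARS, NARS2, MARS2, SARS2 and AARS2 were still called. Leaving out U937 PMA 2 alone gave 13 called members in U937, 16 in THP-1 and 1 in the difference between those lines, and leaving out U937 DMSO 1 alone gave 12 in U937. With quantile normalization the median of all genes in U937 went from -0.07 to 0.12, and the shares called lower and higher from 15.9% and 5.35% to 13.7% and 12.9%, while 17 members were still lower and WARS was higher. AARS2, CARS2 and LARS2 lost their U937 calls with it, and also with the U937 arrays alone.

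**Figure D4:**
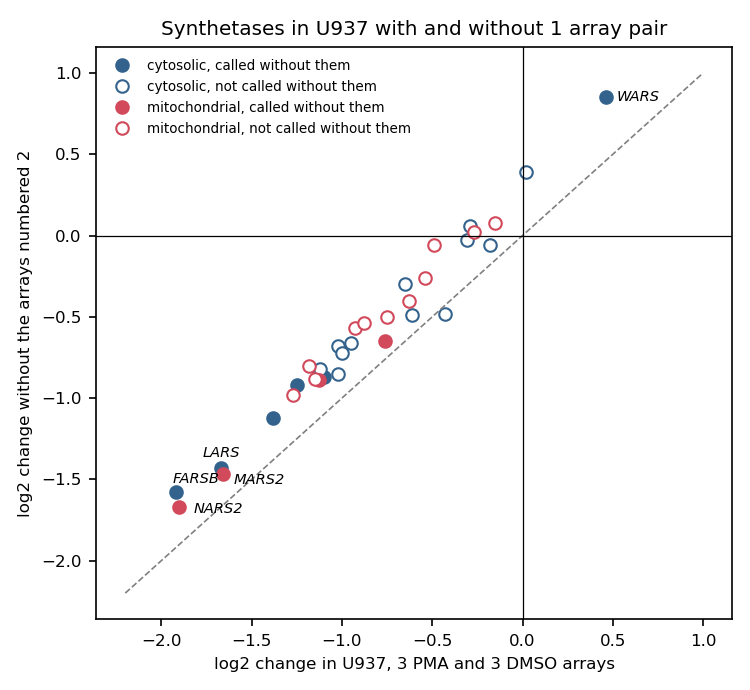
Log2 change with PMA of each synthetase in U937 from all 6 arrays (horizontal axis) and without the pair numbered 2 (vertical axis), where filled points have an adjusted p under 0.05 without the pair and the dashed line marks equal values. Nearly all points lie above the line, and FARSB, NARS2, LARS and MARS2 remain lowest, at -1.58, -1.67, -1.43 and -1.47.

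Genes that work with the synthetases were taken from lists of their known roles. The 3 scaffold proteins of the multisynthetase complex, AIMP1, AIMP2 and EEF1E1, were called in no line by limma, with 0, 0 and 2 at an unadjusted p under 0.05 in HL60, THP-1 and U937 and 2, 2 and 3 called lower with the replicate block. Their errors were wide: EEF1E1 was at -1.89 ± 0.79 in U937 (limma adjusted p = 0.107). Of 5 cytosolic elongation factors, 1 was called, EEF1D in U937, which fell by 0.61 ± 0.17, and the medians were -0.22, -0.01 and -0.48. EEF1D lost that call without U937 DMSO 1 (-0.59) and without both arrays numbered 2 (-0.44), where the list had no call in U937 and a median of -0.27 and the scaffold proteins a median of -1.06.

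Of 13 mitochondrial translation factors, 0, 3 and 6 were lower in HL60, THP-1 and U937, with medians of -0.30, -0.58 and -0.95, against 10.5%, 12.8% and 15.9% of all genes called lower. With the U937 arrays numbered 2 left out, the U937 count was 3 and the median -0.69, against 9.86% of all genes. QRSL1, a subunit of the amidotransferase that makes glutaminyl-tRNA in mitochondria, which have no glutaminyl-tRNA synthetase of their own, fell by 1.01 ± 0.28 in THP-1 and 1.41 ± 0.28 in U937, the THP-1 call being lost without DMSO 1 (-0.94), DMSO 2 (-0.84) or PMA 1 (-0.92), and was called at -1.02 in U937 without the pair. The elongation factors GFM1 and TSFM fell in U937 by 1.31 ± 0.41 and 1.19 ± 0.37, calls lost without DMSO 1 (-1.13 and -1.02), DMSO 2 (-1.26 and -1.12) or PMA 2 (-0.93 and -1.02) and without the pair numbered 2 (-0.88 and -0.94). MTFMT, which formylates the methionine on the initiator transfer RNA charged by MARS2, rose in HL60 by 0.95 ± 0.29, where MARS2 fell. That call was lost without HL60 DMSO 2 (0.93), DMSO 3 (0.76), PMA 1 (0.96) or PMA 3 (0.83).

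Of 8 genes of transfer RNA export and end processing, 5, 3 and 7 were called lower in HL60, THP-1 and U937 and none higher, with medians of -0.97, -0.95 and -1.33, against 10.5%, 12.8% and 15.9% of all genes called lower. TSEN34, a subunit of the splicing endonuclease, was at 0.14, 0.24 and 0.11. Without the U937 arrays numbered 2, 2 of 8 were called lower in U937 and the median was -1.12, against 9.86% of all genes. XPOT, the nuclear exporter of transfer RNA, fell by 1.32 ± 0.23, 1.80 ± 0.23 and 1.51 ± 0.23 (limma adjusted p = 0.000297, 1.77e-05 and 0.00013), and by 1.29 ± 0.20 in U937 without that pair. TRNT1, which adds the CCA end to which the amino acid is joined, fell by 1.55 ± 0.38 in U937, where it was not called without the arrays numbered 2 (-1.41, limma adjusted p = 0.0664). POP1, a subunit of the ribonuclease P that trims the leading end, fell by 1.42 ± 0.28 in THP-1. RPP40 and SSB of this list had the largest called falls in HL60 and U937, with U937 changes of -2.46 and -1.79. Without the U937 arrays numbered 2 these were -2.26 and -1.91 and not called. The SSB call in U937 was also lost without DMSO 1 (-1.66), DMSO 2 (-1.66), PMA 1 (-1.96) or PMA 3 (-1.39). Both calls in HL60 were lost in some fits without 1 array.

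Cytosolic synthetases are known targets of ATF4, the transcription factor of the amino acid response. An exact match to the core of its element, TGATGNAA on either strand, was found in promoters of 8 members, shown here because the measured changes can be set against it. Each line holds 28 bases of the RefSeq promoter (GRCh38.p14) on the strand of the gene, with the core in capitals.
AARS, chr16:70289676-70289703, minus strand: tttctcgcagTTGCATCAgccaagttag
CARS, chr11:3057408-3057435, minus strand: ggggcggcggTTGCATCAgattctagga
GARS, chr7:30594835-30594862, plus strand: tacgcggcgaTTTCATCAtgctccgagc
IARS, chr9:92293693-92293720, minus strand: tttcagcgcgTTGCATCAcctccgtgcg
MARS, chr12:57488054-57488081, plus strand: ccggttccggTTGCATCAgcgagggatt
NARS, chr18:57621805-57621832, minus strand: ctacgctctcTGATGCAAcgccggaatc
TARS, chr5:33440957-33440984, plus strand: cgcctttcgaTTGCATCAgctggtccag
YARS2, chr12:32756077-32756104, minus strand: tccacactgcTGATGGAAaaattaagtt
The core began 2 to 33 bases before the start in CARS, GARS, IARS and MARS, 187 before it in AARS and 197 before it in YARS2, and after it in NARS and TARS. In AARS, CARS, IARS, MARS, TARS and, on the other strand, NARS the 8 letters of the core were identical. It was found in 33.3% of the 21 promoters of cytosolic members, 5.56% of the 18 of mitochondrial members and 3.62% of all 35116.

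Of the 7 cytosolic members with the core, 0, 2 and 3 were lower in HL60, THP-1 and U937, with median changes of -0.22, -0.73 and -0.65. Of the 9 with a promoter in the table and no core, 1, 3 and 4 were lower, with medians of -0.57, -0.37 and -1.02, and WARS was higher in HL60. Of all genes, 10.5%, 12.8% and 15.9% were called lower. Without the U937 pair numbered 2, 1 of the 7 (IARS) and 2 of the 9 were lower in U937, with medians of -0.49 and -0.68, against 9.86% of all genes. The difference between members with and without the core was not tested.

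Other amino acid response genes went both ways. Of 20 measured, 3 were higher in each line and 5, 8 and 7 were lower, with medians of -0.17, -0.56 and -0.27. Of all genes, 12%, 9.04% and 5.35% were called higher and 10.5%, 12.8% and 15.9% lower. Without the U937 arrays numbered 2, 2 were higher and 4 lower in U937, with a median of -0.09, against 7.84% and 9.86% of all genes. ATF4 itself was not called, at -0.08, -0.03 and -0.28, each ± 0.39. ATF3, a stress-induced factor of the same family, rose by 3.34 ± 0.26, 2.21 ± 0.26 and 1.66 ± 0.26. The serine synthesis enzymes PHGDH and PSAT1 fell in each line, PHGDH by 2.64 ± 0.23, 2.37 ± 0.23 and 2.08 ± 0.23, and PSAT1 by 2.40 ± 0.34, 3.10 ± 0.34 and 2.67 ± 0.34. Without the pair numbered 2, ATF3, PHGDH and PSAT1 were still called in U937, at 1.89, -2.11 and -2.69. The cystine carrier SLC7A11 fell by 2.13 ± 0.57 in THP-1 and rose by 1.74 ± 0.57 in U937, the latter call lost without U937 DMSO 1 (1.93), DMSO 2 (1.67), DMSO 3 (1.63), PMA 1 (1.41) or PMA 2 (1.83) and without the pair numbered 2 (1.75), and the lipoprotein receptor VLDLR fell by 2.97 ± 0.37 in THP-1.

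**Figure D5:**
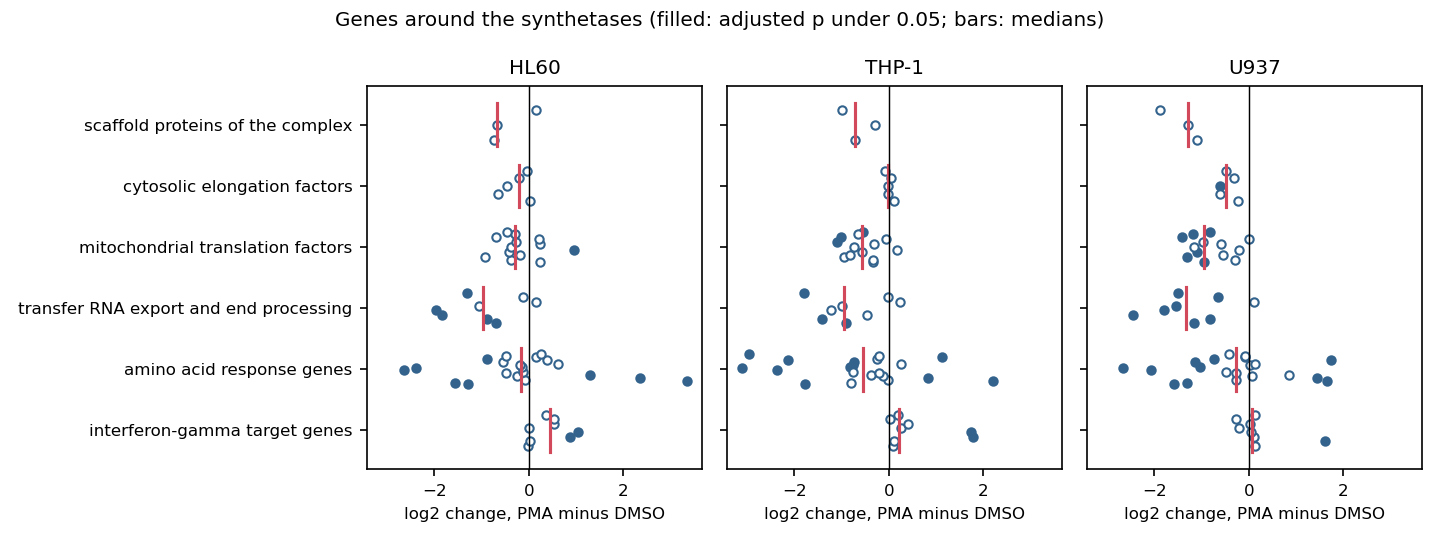
Log2 change with PMA (horizontal axis) of each gene in 6 lists around the synthetases, by line, where filled points have an adjusted p under 0.05 and bars mark medians. Transfer RNA export and end processing has the lowest median in HL60, THP-1 and U937, at -0.97, -0.95 and -1.33, and the amino acid response genes spread on both sides of 0.

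Markers of dividing cells were lower too. Of 6 such genes, 6, 5 and 5 were called lower in HL60, THP-1 and U937, with medians of -2.64, -1.97 and -1.95, against 10.5%, 12.8% and 15.9% of all genes. Without the U937 pair numbered 2, 5 were lower in U937 and the median was -1.87, with TOP2A at -2.66 and MKI67 at -2.24. TOP2A, the topoisomerase of mitosis, fell by 4.99 ± 0.27, 2.91 ± 0.27 and 2.57 ± 0.27, and MKI67 by 3.73 ± 0.34, 1.91 ± 0.34 and 2.08 ± 0.34. The median change over all 34 synthetases was -0.41, -0.55 and -0.94. The part of these markers in the synthetase changes was not tested.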

How the data were processed

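Messenger RNA of 18 samples was measured on Affymetrix human exon arrays. The deposited values are log2 probe-set values of the core exon level made by the authors with Affymetrix Expression Console, per the submitters' processing notes, and the background correction, normalization and version were not given in the sources used here. Probe sets with 1 gene symbol (261273 of 287329) were kept, 9155 with several and 16901 with none were not, and old symbols were matched to current ones. A gene's value is the mean of its probe sets, with no filter on low values. One limma 3.58.1 fit (R 4.3.3) of 6 group means over 16909 genes, with 12 residual degrees of freedom, gave two-sided p-values, Benjamini-Hochberg adjusted. It was also run on simulated data with independent noise on each array. Those data held no correlation of same-numbered arrays and no array that stood apart, so they do not test the p-values under these features. Precision is limited by 3 arrays a group.

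The labels do not say what a replicate number marks. Deviations from the group mean correlated between same-numbered DMSO and PMA arrays (0.77, 0.45 and 0.55 in HL60, 0.38, 0.61 and 0.63 in THP-1, 0.43, 0.27 and 0.50 in U937), while other-numbered pairs of a line ran from -0.63 to 0.40 and in THP-1 and U937 1 such pair exceeded a same-numbered one (0.40 for DMSO 1 with PMA 2 in THP-1, 0.30 for DMSO 2 with PMA 1 in U937). As every same-numbered correlation was over 0.1, the replicate number was also fitted as a block. Other alternatives were quantile normalization, centring on array medians, medians of probe sets, leaving out dim probe sets or genes, a minimum of 3 probe sets, limma's trend with robust variances, and leaving out arrays. The members and lists were chosen with earlier results of these data known. Members given array by array were, per line and class, the 3 largest called increases and decreases, and any called in a difference between lines. List genes named were taken from the up to 3 per list and line with the largest called changes, not all of which are described. Outside that rule are EEF1E1 and ATF4, chosen after their values were seen, and TSEN34, which was called in no line. Matching promoters (30 of 36 members) came from RefSeq, GRCh38.p14.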

Additional observations from a re-analysis of the deposited data

Results flagged for a closer look

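Among the synthetases, 1 difference of PMA effects between lines was called by limma in the fit of all arrays (Benjamini-Hochberg adjusted over all genes), and alternatives called others. It was that of WARS, whose effect was 2.02 ± 0.40 log2 units larger in HL60 than in THP-1 (SE, limma adjusted p = 0.00345). Leaving out any single array gave 1.89 to 2.13.

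Among genes of the companion lists, the same limma test on all arrays separated lines as follows. Differences that involve U937, here and for the proliferation markers below, are not given without its arrays numbered 2. ATF3 rose more in HL60 than in U937, by 1.68 ± 0.37 (adjusted p = 0.00775). For SLC7A11 the THP-1 effect minus the U937 effect was -3.87 ± 0.81 (limma adjusted p = 0.00748). The U937 effect itself was not called without the arrays numbered 2 (1.75, limma adjusted p = 0.162). For VLDLR the HL60 effect minus the THP-1 effect was 3.22 ± 0.53 and the THP-1 effect minus the U937 effect -2.55 ± 0.53 (limma adjusted p = 0.000778 and 0.00726). GBP1 and GBP2 rose more in THP-1 than in U937, by 1.69 ± 0.38 and 1.68 ± 0.32 (limma adjusted p = 0.0141 and 0.00359). The effect on CXCL10 was -1.57 ± 0.29 in HL60 minus U937 and -1.49 ± 0.29 in THP-1 minus U937 (limma adjusted p = 0.00205 and 0.0043).

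Proliferation markers differed too. For MKI67 the HL60 effect was lower than that in THP-1 (-1.81 ± 0.48) and U937 (-1.64 ± 0.48), with limma adjusted p = 0.0254 and 0.0444. For TOP2A it was lower by the same contrasts (-2.08 ± 0.38 and -2.43 ± 0.38, limma adjusted p = 0.00204 and 0.00053).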

How the results depend on the processing

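No called change of a named gene changed sign under the alternatives run, while the difference of the class medians did, in THP-1 and U937. With the replicate block 18 synthetases were called in THP-1 and 2 in the difference of HL60 and U937, and it changed no call among the named results that the fit without it had made. Quantile normalization called 15 in HL60 and 18 in THP-1, and 2, 1 and 1 in the differences HL60 minus THP-1, HL60 minus U937 and THP-1 minus U937. Centring arrays on their medians called 14 in HL60, 17 in THP-1, 2 in HL60 minus THP-1 and 1 in THP-1 minus U937. Without both U937 arrays numbered 2 there were 10 in U937, 2 in HL60 minus THP-1 and 1 in THP-1 minus U937. Adding the block to that, a combination chosen after seeing the data, gave 17 in HL60, 20 in THP-1, 5 in HL60 minus THP-1 and 1 in THP-1 minus U937. The arrays of HL60 and THP-1 alone gave 2 in their difference. Cytosolic minus mitochondrial median change became 0.12 in THP-1 and -0.03 in U937 with medians of probe sets, and -0.06 in THP-1 without dim probe sets. The causes were not tested.

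Leaving out 1 array at a time gave 5 to 8 called members in HL60 (5 without HL60 DMSO 1 or PMA 3), 7 to 16 in THP-1 (16 without U937 PMA 2) and 12 to 21 in U937 (12 without U937 DMSO 1, 13 without U937 PMA 2). For the differences it gave 1 to 2, 0 to 4 (4 without U937 PMA 3) and 0 to 1. The median change of cytosolic minus mitochondrial members ran from -0.28 to -0.03 in HL60, -0.23 to -0.02 in THP-1 and -0.18 to 0.06 in U937. Signal over background limits NARS2, whose PMA arrays, at 5.03 to 6.05, lay around the 30th percentile of gene values, 5.27. The same limit holds for WARS2, YARS2 and FARS2 in U937, which read 5.22, 5.12 and 5.71 on PMA 2.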
